A study of Mus musculus with 8 samples.

Results

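Ubiquitin-specific proteases (USPs) were followed across 4 groups of EO771 cells, a mouse mammary carcinoma line. The family was taken as every gene whose symbol is Usp followed by a number, with or without a further letter and number, leaving out Usp18, an interferon-induced protease of the ubiquitin-like protein ISG15. This gave 49 of the 49997 genes in the count table, and the 24 that averaged at least 10 counts per library were tested. In the first experiment, EO771 cells were given vehicle or 12-HETE, a lipid made from arachidonic acid by 12-lipoxygenase, and the study's methods give a dose of 100 nM for 48 h. In the second, EO771 cells carried an empty vector or a vector for overexpression of ADAR1 p150, the interferon-inducible isoform of an enzyme that edits adenosine to inosine in double-stranded RNA. Each group had 2 libraries, and the labels do not say whether these were separate cultures, so p-values measure only the spread between these libraries. The labels also do not say whether the transduced cells were a clone or a pool.

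Ubiquitin is attached to proteins by a cascade of activating (E1), conjugating (E2) and ligating (E3) enzymes, and marks them for degradation by the proteasome or changes their activity, partners or location. USPs are the largest family of deubiquitinases, cysteine proteases that cut ubiquitin from substrates. Single members are known for acting on p53 and its ligase Mdm2, on ubiquitinated histones, at the proteasome and on cargo of endosomes.

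Total counts ranged from 1101767 to 1537037 per library after the authors had removed duplicates, and a single abundant RNA, AY036118, took 44.4% to 50.3% of them. Adar had 2 to 8 counts in the vehicle, 12-HETE and vector libraries, and 181 and 140 with ADAR1 p150 overexpression. The epithelial keratins Krt8, Krt18 and Krt19 had 42 to 150 counts in every library and Vim 28 to 65, while Epcam had 1 to 4 and Cdh1 was at 0 in every library. The 7 markers of leukocytes, endothelium and fibroblasts summed to 3 to 14 counts per library. A level is given below as normalized CPM (counts relative to the TMM-scaled library size), and 3 counts correspond to 2.11 to 2.74 normalized CPM.

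Usp24 had the most counts of any member in every library. It encodes a large USP and lies on the plus strand of chromosome 4 (GRCm38, 106315980 to 106446613). Its counts were 606 and 554 (vehicle), 1397 and 1263 (12-HETE), 568 and 590 (vector) and 490 and 448 (ADAR1 p150). Both 12-HETE libraries lay above the other 6, and both ADAR1 p150 libraries lay below the rest. In normalized CPM, Usp24 was at 489 ± 41.9 (vehicle), 982 ± 20.7 (12-HETE), 517 ± 2.11 (vector) and 342 ± 4.28 (ADAR1 p150; SD, n = 2 libraries each). The fitted log2 fold change was 1.01 with 12-HETE (standard error 0.094, 2.01-fold) and -0.60 with ADAR1 p150 (standard error 0.099, 0.661-fold), and the 2 effects differed by 1.60 (standard error 0.14). Usp24 had been singled out with its rise with 12-HETE alone already known, so these values are a description and carry no test. The 12-HETE change sat at the 2-fold line, and was 0.85 on the log2 scale without vehicle replicate 5 and 1.09 without vehicle replicate 4. The median over tested genes of chromosome 4 was 0.09 with 12-HETE and 0.06 with ADAR1 p150. In bulk RNA, a change in the number of cells that express a gene and a change in its RNA per cell cannot be told apart.

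To show the DNA at the start of members that moved in different ways, 300 bases around 1 transcription start per gene (250 before and 50 after it, RefSeq, GRCm38.p6) are given for Usp24, for Usp37, which was higher with both treatments, and for Usp47, which was lower with 12-HETE. The windows are chr4:106315963-106316262 on the plus strand, chr1:74505772-74506071 on the minus strand and chr7:112023256-112023555 on the plus strand. The start used lies inside the annotated span of its gene, by 233 bases for Usp24, 38465 for Usp37 and 30 for Usp47, so other transcripts begin further upstream. Each is written along the strand of its gene, and capitals mark matches, on either strand, to the GC box (GGGCGG), the CCAAT box (CCAAT), the TATA box (TATAAA), an ETS motif (CCGGAAG), an AP-1 motif (TGACTCA), an E-box (CACGTG) and a cAMP response element (TGACGTCA).
Usp24: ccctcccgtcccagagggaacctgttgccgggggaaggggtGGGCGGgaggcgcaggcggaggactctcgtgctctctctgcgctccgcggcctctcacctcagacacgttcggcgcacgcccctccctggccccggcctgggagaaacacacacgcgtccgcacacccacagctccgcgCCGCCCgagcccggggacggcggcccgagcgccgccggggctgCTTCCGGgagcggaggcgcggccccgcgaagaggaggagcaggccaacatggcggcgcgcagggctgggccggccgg
Usp37: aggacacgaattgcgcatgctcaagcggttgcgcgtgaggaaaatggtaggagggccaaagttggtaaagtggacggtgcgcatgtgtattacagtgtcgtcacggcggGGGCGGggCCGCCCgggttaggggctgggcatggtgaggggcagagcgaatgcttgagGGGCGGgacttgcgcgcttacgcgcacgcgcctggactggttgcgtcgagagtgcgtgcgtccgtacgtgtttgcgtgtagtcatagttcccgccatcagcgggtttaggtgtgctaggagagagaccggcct
Usp47: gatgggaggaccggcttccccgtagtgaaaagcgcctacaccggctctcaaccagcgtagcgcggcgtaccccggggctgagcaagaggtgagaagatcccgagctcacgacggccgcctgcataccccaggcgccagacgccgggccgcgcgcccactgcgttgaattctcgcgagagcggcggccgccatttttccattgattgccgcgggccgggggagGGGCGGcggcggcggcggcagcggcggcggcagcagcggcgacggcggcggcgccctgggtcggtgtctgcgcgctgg
The window of Usp24 held 2 GC boxes and 1 ETS match, that of Usp37 3 GC boxes and that of Usp47 1 GC box, and none of the 3 held another of these motifs. A window was found for 17 of the 24 tested members, and 13 of these held a GC box, against 35.7% of all 32851 windows. An ETS match was in 4 of 17 and in 8.86% of all windows, a CCAAT box in 2 of 17 and in 37.4%, a TATA box in 2 of 17 and in 13.6%, an E-box in 3 of 17 and in 7.15%, an AP-1 match in 1 of 17 and in 5.20%, and the cAMP response element in 0 of 17 and in 1.79%. The median GC content was 65.0% over the windows of tested members and 52.7% over all windows. The 17 windows are of tested members, 1 per gene, while all windows were taken whether or not a gene was tested. These sets are therefore unlike, and a comparison with the windows of all tested genes was not made. GC content moves with the number of GC boxes, and a match is a string of letters and not a measured site.

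Per kb of exon, Usp24 averaged 47.2 normalized CPM over the 8 libraries and Usp34 9.12, followed by Usp7 at 6.20, Usp54 at 5.78 and Usp44 at 5.31. The lowest Usp24 library, at 27.4 CPM per kb, was above the highest Usp34 library, at 12.2. Usp7, Usp54, Usp44 and Usp16 overlapped in their ranges over the libraries. Usp24 made up 31.2% to 54.4% of all counts of the family, with both extremes in treated libraries.

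**Figure D1:**
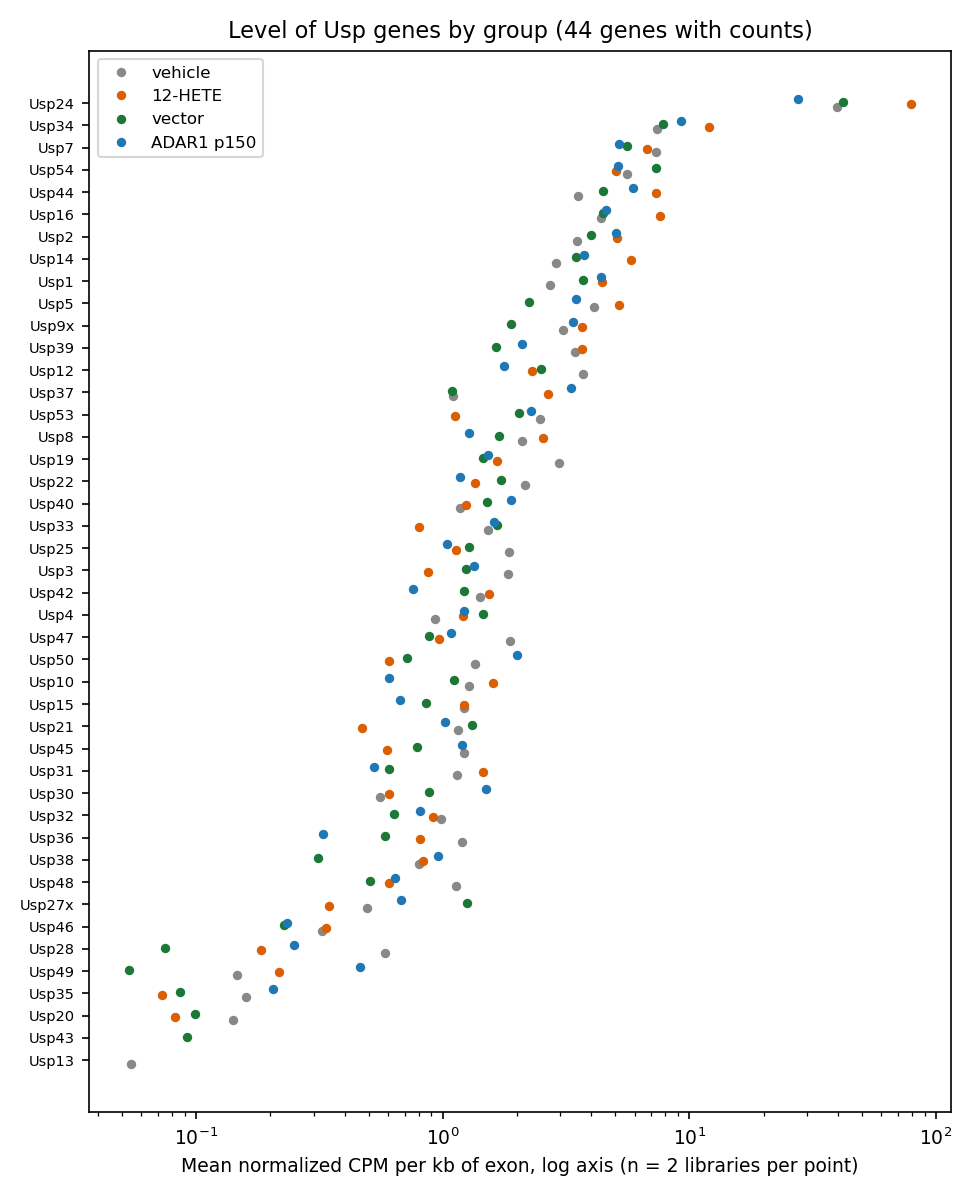
Mean normalized CPM per kb of exon (log axis) of the 44 Usp genes with any count, with 1 point per group of 2 libraries; a group at 0 has no point. Usp24 stands at the right, with a mean of 47.2 CPM per kb against 9.12 for Usp34, the next gene.

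Of the 25 members under the minimum, 5 (Usp11, Usp26, Usp29, Usp51 and Usp9y) had 0 counts in every library, which allows up to 2.11 to 2.74 normalized CPM per library by counting error alone. The other 20 had at most 18 counts in any library. Just inside and just outside the minimum were Usp8, with a mean count of 10.1, and Usp22, with 9.75. Differences between groups were not detectable at these counts for these 25 members. Tnfrsf13b, which overlaps Usp22 on the opposite strand, had 983 to 1328 counts per library, where Usp22 had 4 to 16. By contrast, Kctd21, opposite Usp35, had 0 or 1. Whether strand assignment entered the low counts was not tested.

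Summed over the family, the level was 1201 and 1232 normalized CPM with vehicle and 1833 and 1819 with 12-HETE. With vector it was 1159 and 1177, and with ADAR1 p150 1106 and 1035. Without Usp24, the sum was 682 and 772 (vehicle), 837 and 852 (12-HETE), 641 and 661 (vector) and 761 and 696 (ADAR1 p150). The 12-HETE libraries lay above the vehicle libraries with and without Usp24. The ADAR1 p150 libraries lay below the vector libraries with Usp24 and above them without it.

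**Figure D2:**
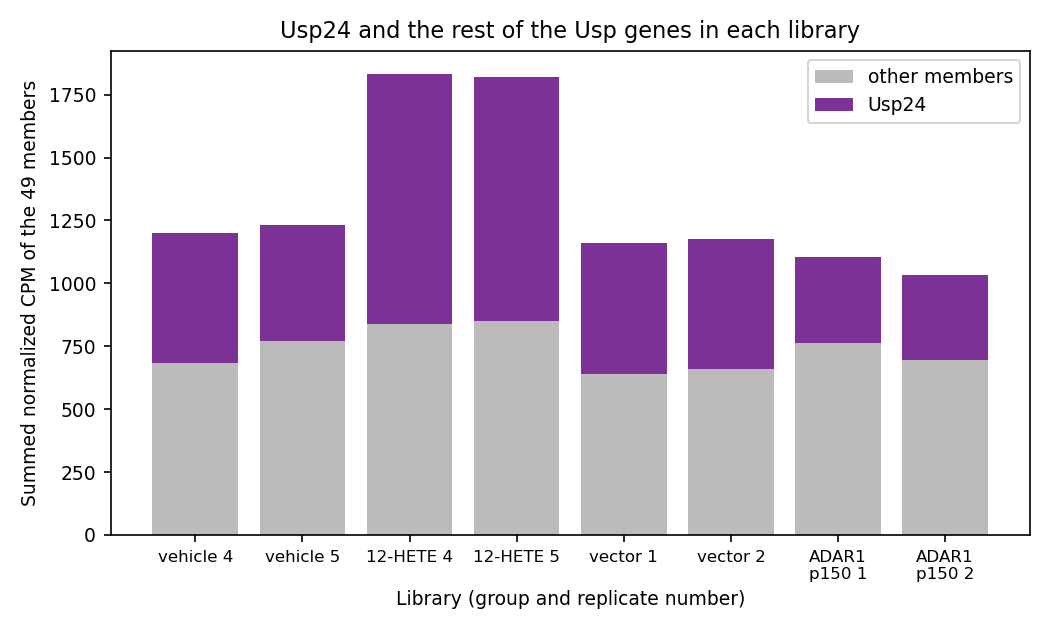
Summed normalized CPM of the 49 members in each library (bars from 0), split into Usp24 (purple) and all other members (grey). The 12-HETE bars reach 1833 and 1819, and the grey part lies between 641 and 852 in all 8 libraries.

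With 12-HETE, 8 of the 24 tested members passed an adjusted p of 0.05 in edgeR's quasi-likelihood test (33.3%, against 29.3% of all 6901 genes tested). Of these, 6 were higher (25% of the members, against 15.1% of all genes) and 2 were lower (8.33% of the members, against 14.2% of all genes). With a 2-fold change required as well, 5 members were called (20.8%, against 14.4% of all genes), namely Usp24, Usp14, Usp37, Usp44 and Usp53. Without Usp24, 7 of 23 passed the adjusted p alone and 4 of 23 both criteria. The median log2 fold change was 0.29 over the 24 members and 0.004 over all genes. The groups did not overlap for 13 members, 9 higher and 4 lower, and for 64.1% of all genes. The count of members past both criteria fell to 1 with DESeq2, where 3 passed the adjusted p alone (Usp24, Usp34 and Usp37). It was also lower in some fits without 1 library. The share of all genes called in these alternatives is not given here, so the falls are not a result about the family.

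Usp37 is known for acting in the cell cycle and in DNA replication. Its counts were 14 and 15 (vehicle), 39 and 41 (12-HETE), 12 and 15 (vector) and 54 and 47 (ADAR1 p150). All 4 treated libraries lay above all 4 control libraries. The log2 fold change was 1.27 with 12-HETE (standard error 0.31, edgeR adjusted p = 0.00173) and 1.60 with ADAR1 p150 (standard error 0.30, edgeR adjusted p = 0.000108). The 2 effects differed by -0.33, with a 95% interval from -1.25 to 0.59. Usp37 overlaps Vil1, Cnot9 and Plcd4 on the opposite strand, whose log2 fold changes with 12-HETE were 0.65, 0.64 and 0.24, none of them called. With ADAR1 p150 these neighbours changed by 0.73, -0.52 and 0.05, again none of them called. The median over tested genes of chromosome 1, where Usp37 lies, was 0.16 with 12-HETE and 0.30 with ADAR1 p150.

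Usp34, a very large USP known for stabilizing axin in Wnt signalling, gave counts of 149 and 175 (vehicle), 305 and 294 (12-HETE), 155 and 168 (vector) and 248 and 222 (ADAR1 p150). Both 12-HETE libraries lay above both vehicle libraries in counts and in normalized CPM. The log2 fold change with 12-HETE was 0.70 (standard error 0.12, edgeR adjusted p = 3.71e-05), and with ADAR1 p150 it was 0.25 (standard error 0.13, edgeR adjusted p = 0.157). Usp34 shares 2137 exon bases with Ahsa2 on the opposite strand, which changed by 0.47 with 12-HETE (edgeR adjusted p = 0.00172) and by 0.47 with ADAR1 p150 (edgeR adjusted p = 0.00163). The sources used here do not state whether strand entered the counting, so reads of a member and of a gene that overlaps it on the other strand cannot be told apart.

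Among the members known for acting on ubiquitinated histones H2A or H2B, 3 of 8 were tested, and Usp16 and Usp44 rose with 12-HETE, where 15.1% of all genes were called higher. Usp16, an H2A deubiquitinase, gave counts of 47 and 51 (vehicle), 94 and 101 (12-HETE), 42 and 53 (vector) and 58 and 61 (ADAR1 p150). Its log2 fold change with 12-HETE was 0.80 (standard error 0.20, edgeR adjusted p = 0.00205, and 0.0606 with DESeq2). Usp44, which acts on H2B and in the spindle checkpoint, gave counts of 16 and 18 (vehicle), 39 and 41 (12-HETE), 23 and 17 (vector) and 30 and 35 (ADAR1 p150). Both 12-HETE libraries were above both vehicle libraries for each of these genes. With 12-HETE, Usp44 changed on the log2 scale by 1.04 (standard error 0.31, edgeR adjusted p = 0.00995). The call was lost without vehicle replicate 4 (adjusted p = 0.0658), without vehicle replicate 5 (0.0657), without 12-HETE replicate 5 (0.0684), all from edgeR, and with DESeq2 (0.139). Metap2, whose span overlaps that of Usp44 by 937 bases on the opposite strand with no shared exon bases, changed by 0.85 (edgeR adjusted p = 0.00979). For Cct8, which shares 192 exon bases with Usp16, the value was 0.38 (edgeR adjusted p = 0.15). The third, Usp3, gave counts of 12 and 18 (vehicle) and 7 and 9 (12-HETE), and its log2 fold change was -1.08 (edgeR adjusted p = 0.069).

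Usp14, which binds the proteasome and trims ubiquitin from its substrates, gave counts of 23 and 34 (vehicle), 68 and 63 (12-HETE), 29 and 36 (vector) and 38 and 47 (ADAR1 p150). The 12-HETE libraries lay above the other 6. With 12-HETE its log2 fold change was 1.01 (standard error 0.25, edgeR adjusted p = 0.00181), and 0.78 without vehicle replicate 4 (edgeR adjusted p = 0.0547). With DESeq2 the adjusted p was 0.057. Usp14 shares 2169 exon bases with Thoc1 on the opposite strand, whose log2 fold change with 12-HETE was 0.15 (edgeR adjusted p = 0.524).

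Usp53 and Usp47 were lower with 12-HETE. Usp53, a member found at tight junctions, gave counts of 38 and 36 (vehicle), 16 and 22 (12-HETE), 37 and 20 (vector) and 44 and 35 (ADAR1 p150). In normalized CPM, the 12-HETE libraries, at 11.4 and 16.8, lay below the other 6, of which vector replicate 2 was the nearest at 17.5. The log2 fold change with 12-HETE was -1.14 (standard error 0.32, edgeR adjusted p = 0.00596), and -0.88 without 12-HETE replicate 4 (edgeR adjusted p = 0.108). With DESeq2 the adjusted p was 0.0686. Usp47, known for acting on DNA polymerase beta in base excision repair, gave counts of 27 and 34 (vehicle), 17 and 19 (12-HETE), 13 and 14 (vector) and 24 and 17 (ADAR1 p150). Its vector and 12-HETE libraries overlapped in normalized CPM, at 11.9 and 12.2 (vector) and 12.1 and 14.6 (12-HETE). Between the controls, vector against vehicle, the log2 fold change of Usp47 was -1.09 (standard error 0.34). The log2 fold change with 12-HETE was -0.94 (standard error 0.32, edgeR adjusted p = 0.026), and the call was lost without vehicle replicate 5 (adjusted p = 0.139), without 12-HETE replicate 4 (0.153) or without 12-HETE replicate 5 (0.0589) in edgeR, and with DESeq2 (0.217).

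**Figure D3:**
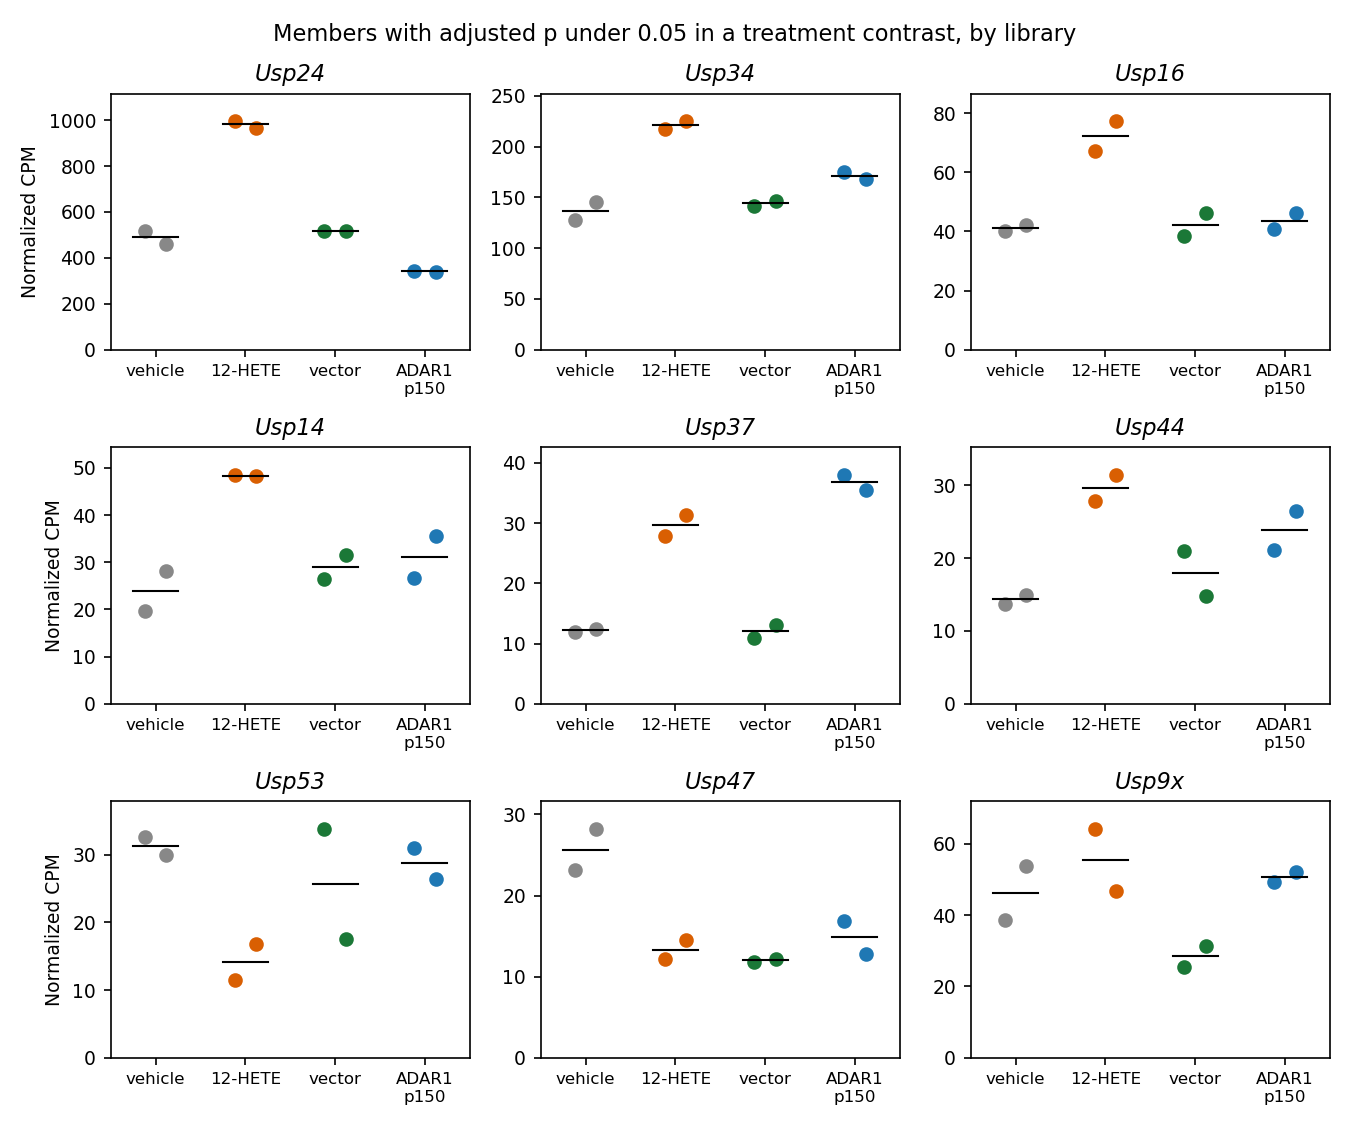
Normalized CPM (linear axes from 0) of the 9 members past an adjusted p of 0.05 in a treatment contrast, with 1 point per library and a line at each group mean. Usp37 is higher in all 4 treated libraries than in the controls, and Usp53 with 12-HETE lies at 11.4 and 16.8.

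With ADAR1 p150, 3 of the 24 tested members passed the adjusted p alone (12.5%, against 25.6% of all genes), and 1, Usp37, passed with the 2-fold change (4.17%, against 12.8%). Usp37 and Usp9x were higher (14.5% of all genes were called higher), and Usp24 was lower (11.1% of all genes). The median log2 fold change was 0.09 over the members and 0.07 over all genes, and the groups did not overlap for 11 members, 7 higher and 4 lower, and for 60% of all genes. Without Usp24, 2 of 23 passed the adjusted p alone.

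Usp9x, an X-linked USP known for acting on endosomal cargo and on E3 ligases, gave counts of 45 and 65 (vehicle), 90 and 61 (12-HETE), 28 and 36 (vector) and 70 and 69 (ADAR1 p150). The vector libraries were the lowest, and the ADAR1 p150 libraries lay within the range of the vehicle and 12-HETE libraries. Between the controls, vector against vehicle, the log2 fold change of Usp9x was -0.70 (standard error 0.25). The log2 fold change with ADAR1 p150 was 0.82 (standard error 0.24, edgeR adjusted p = 0.0102), and 0.69 without vector replicate 1 (edgeR adjusted p = 0.111). The call was also lost with no minimum count (edgeR adjusted p = 0.0561) and with DESeq2 (0.138). Over all tested genes of chromosome X, the median log2 fold change was 0.50 with ADAR1 p150 and 0.47 with 12-HETE. The part of this shift in the value of Usp9x was not tested.

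**Figure D4:**
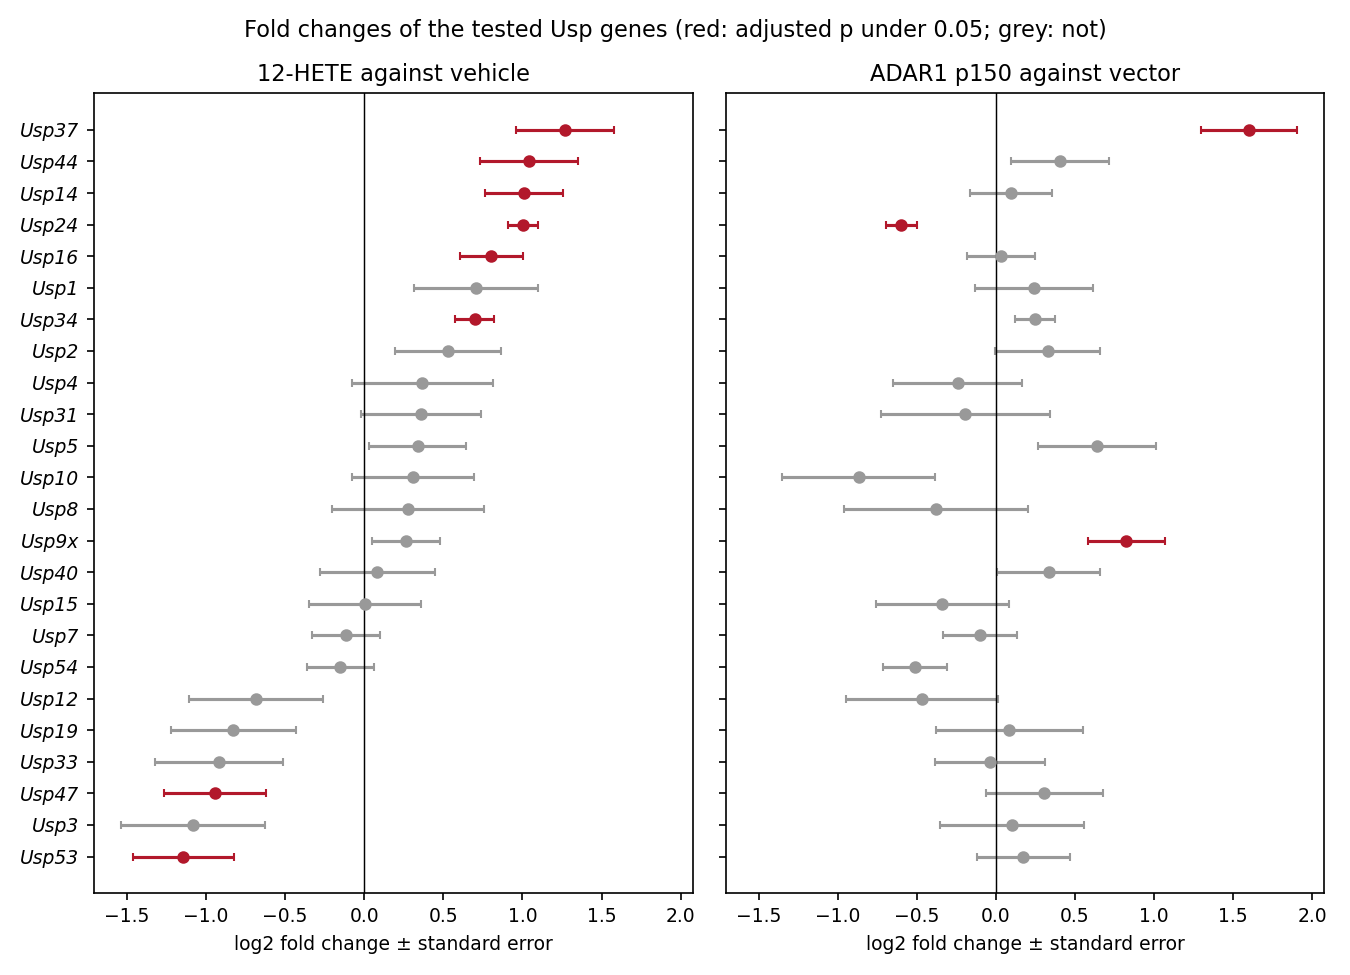
Log2 fold change with its standard error of the 24 tested members with 12-HETE (left) and with ADAR1 p150 (right), ordered by the 12-HETE value, red where the edgeR adjusted p was under 0.05. With 12-HETE 6 members are red on the right of 0 and 2 on the left; Usp24 lies at 1.01 on the left panel and -0.60 on the right.

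The remaining 15 tested members passed in neither treatment contrast. Among the 5 members with the highest mean counts were Usp54 and Usp7. Usp54 gave counts of 60 and 60 (vehicle), 53 and 70 (12-HETE), 78 and 71 (vector) and 66 and 62 (ADAR1 p150). Its log2 fold change with ADAR1 p150 was -0.51 (standard error 0.20, edgeR adjusted p = 0.0586), and it passed in edgeR with RLE factors (0.0346), with totals without AY036118, Rn7s1 and Rn7s2 (0.0361) and in a fit of the 4 libraries of that experiment (0.0414). Usp7, a deubiquitinase of Mdm2 and p53, gave counts of 53 and 82 (vehicle), 71 and 71 (12-HETE), 48 and 49 (vector) and 67 and 44 (ADAR1 p150). Its log2 fold changes were -0.11 with 12-HETE (95% interval -0.55 to 0.32) and -0.10 with ADAR1 p150 (95% interval -0.58 to 0.37). With 12-HETE, Usp3 passed in the fit of 4 libraries (edgeR adjusted p = 0.0488), Usp33 with a minimum of 10 counts in every library (0.0465) and Usp19 without vehicle replicate 4 (0.0345), each with a negative log2 fold change and each in 1 alternative. The counts by role that follow stand beside 29.3% of all genes called with 12-HETE and 25.6% with ADAR1 p150. Of the 6 members known for acting on p53, Mdm2 or DNA repair, 5 were tested, and Usp47 with 12-HETE was the one that passed. Of 3 members tested that act at endosomes or in trafficking, Usp9x passed with ADAR1 p150. Of 2 tested of the proteasome, ER and mitochondria group, Usp14 passed with 12-HETE. Of 2 tested with links to the spliceosome, none passed.

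The difference between the 2 effects, (12-HETE minus vehicle) minus (ADAR1 p150 minus vector), passed for 2 of 24 members by the adjusted p alone (8.33%, against 15% of all genes) and for the same 2 with the 2-fold change (8.33%, against 8.33% of all genes). They were Usp24, which had been chosen for this difference, and Usp53. Without Usp24, 1 of 23 passed by either rule. For Usp53 the difference was -1.32 (standard error 0.43, edgeR adjusted p = 0.0346). The call was lost in edgeR without vehicle replicate 4 (adjusted p = 0.0927), vehicle replicate 5 (0.0523), 12-HETE replicate 4 (0.175), vector replicate 2 (0.205) or ADAR1 p150 replicate 1 (0.113), with no minimum count (0.0911) and with DESeq2 (0.212). For Usp34, Usp16, Usp14, Usp44 and Usp47, which passed with 12-HETE and not with ADAR1 p150, the difference did not pass (edgeR adjusted p = 0.0867, 0.0758, 0.0853, 0.383 and 0.0841), although that of Usp47 did with a minimum of 10 counts in every library (0.0336). Between the control groups, vector and vehicle, 0 of 24 members passed by either rule in edgeR (0.116% of all genes by the adjusted p alone and 0.0435% with the 2-fold change). At an unadjusted p under 0.05 there were 4 members in edgeR and 1 in DESeq2, and DESeq2 called 0. The share of all genes at an unadjusted p is not given here, so this count is not a result about the family. The 4 in edgeR were Usp47, Usp19, Usp5 and Usp9x, at -1.09, -1.03, -0.88 and -0.70 on the log2 scale, all lower with vector.

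The other deubiquitinase families and the ubiquitin pathway were read beside the USPs. Of 33 other deubiquitinases, 13 were tested, and 3 passed with 12-HETE and 3 with ADAR1 p150, where 29.3% and 25.6% of all genes passed. With 12-HETE, Josd1 (1.11, edgeR adjusted p = 0.00148) and Psmd14, the deubiquitinase of the proteasome lid (1.07, edgeR adjusted p = 0.00946), were higher on the log2 scale, and Otub2 was lower (-1.32, edgeR adjusted p = 0.00912). With ADAR1 p150, Mindy2 was higher (1.19, edgeR adjusted p = 0.0037), and Mindy1 (-0.54, edgeR adjusted p = 0.0246) and Stambpl1 (-1.06, edgeR adjusted p = 0.0454) were lower. The median over the 13 was -0.25 with 12-HETE and 0.01 with ADAR1 p150. Of 7 partners of USP enzymes, 5 were tested, and Gmps, a partner of USP7, was higher with 12-HETE (0.52, edgeR adjusted p = 0.000589). Of 25 genes of ubiquitin activation and conjugation, 11 were tested. Uba1, the main ubiquitin E1 (0.86, edgeR adjusted p = 0.0201), and the E2 Ube2g1 (1.07, edgeR adjusted p = 0.0326) were higher with 12-HETE. These calls, like that of Gmps, stand beside 15.1% of all genes called higher with 12-HETE. None of the 5 partners or 11 activation and conjugation genes passed with ADAR1 p150, and neither of the 2 tested ubiquitin genes, Ubb and Rps27a, passed with either treatment.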

How the data were processed

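The authors deposited raw counts per gene for 8 RNA-seq libraries of EO771 cells. According to the study's methods, these were made with FastQC for quality control, prinseq for the removal of duplicates, STAR for alignment to GRCm38 and featureCounts for counting. The methods name Trizol and a directional library kit, the labels a column kit and another library kit. No column was left unmapped.

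The 6901 of 49997 genes averaging 10 counts or more were kept, and all 8 libraries were fitted together with TMM factors and the quasi-likelihood test of edgeR 4.0.16 (R 4.3.3), with a coefficient per group and Benjamini-Hochberg adjustment over all genes. Calls were made at an adjusted p under 0.05, alone or with a 2-fold change. Standard errors are the log2 fold change divided by the square root of F. The family members, gene lists and tests were chosen with earlier results of these data known. Alternatives were DESeq2 1.42.0, RLE factors, other minimums, totals without abundant RNAs, 4 libraries per fit, a replicate block and leaving out each library. Members named in full are Usp24, those past the adjusted p and the 5 with the highest mean counts. Promoter windows were chosen after the values were seen. Positions are from RefSeq GRCm38.p6 and exon lengths from GENCODE M21. The fit was tested on simulated data. Counting floors cover counting error only.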

Additional observations from a re-analysis of the deposited data

Results flagged for a closer look

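In the main edgeR fit, the effects of the 2 treatments differed in Usp24 and Usp53. For Usp24 the difference was 1.60 on the log2 scale (standard error 0.14), from 1.01 with 12-HETE and -0.60 with ADAR1 p150. Usp24 had been singled out for this pattern, so the value is a description and carries no test. For Usp53, which passed the test of the difference itself in that fit, the difference was -1.32 (standard error 0.43, edgeR adjusted p = 0.0346). It came from -1.14 with 12-HETE and 0.17 with ADAR1 p150. That call was lost with DESeq2 (adjusted p = 0.212), with no minimum count in edgeR (0.0911) and in several edgeR fits without 1 library. The vector libraries of Usp53 had 37 and 20 counts, and without vector replicate 2 the difference was -0.91 (edgeR adjusted p = 0.205). Groups of 2 libraries were too small to test for a single library far from the rest.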

How the results depend on the processing

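With 12-HETE, the count of members past an adjusted p of 0.05 and a 2-fold change was 5, and 8 by the adjusted p alone. It was 1 with DESeq2, 3 with RLE factors, 3 with totals without AY036118, Rn7s1 and Rn7s2, 3 with 10 counts in every library (16 members tested), 2 with no minimum (44 tested), and 3 to 5 on leaving out a library. Usp24 and Usp14, at 1.01, fell under the 2-fold line with DESeq2, RLE factors, those totals and both other minimums. They also did in the fit of 4 libraries, which gave 4 members, Usp3 among them. The share of all genes called under each alternative is not given here, so these counts are not a result about the family. The values of Usp24 are a description. With ADAR1 p150 the count was 1, and 3 by the adjusted p alone. For the difference between effects it was 2, and 1 with DESeq2, 1 with no minimum, 3 with 10 counts in every library and 1 to 2 on leaving out a library. The replicate block gave 5, 1, 2 and 0 calls with 12-HETE, with ADAR1 p150, for the difference and for vector against vehicle, as without it. Same-numbered libraries correlated at -0.0798 and -0.114 in their deviations, which does not show pairing, and a crossed pairing in the ADAR1 p150 experiment, added after seeing the data, also gave 5, 1, 2 and 0.

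Some log2 values changed sign, and none of them passed the test in either setting. Usp16 with ADAR1 p150 was 0.034 and became -0.021 with DESeq2, -0.024 with RLE factors, -0.019 with totals without abundant RNAs, -0.0703 with no minimum and -0.019 with 4 libraries. Usp7 difference was -0.014 and became 0.0296 with DESeq2, 0.022 with RLE factors, 0.043 with no minimum, 0.019 with the replicate block and 0.0096 with the crossed block. Usp14 with ADAR1 p150 was 0.10 and became -0.00697 with no minimum. Usp15 with 12-HETE was 0.0043 and became -0.024 with DESeq2, -0.021 with RLE factors, -0.069 with totals without abundant RNAs, -0.048 with no minimum, -0.024 with 4 libraries, -0.000869 with the replicate block and -0.000451 with the crossed block. Usp19 with ADAR1 p150 was 0.085 and became -0.022 with no minimum. Usp3 with ADAR1 p150 was 0.10 and became -0.0021 with no minimum. On leaving out a library, the 12-HETE values that changed sign ranged for Usp54 from -0.42 to 0.084, Usp7 from -0.37 to 0.14, Usp40 from -0.21 to 0.34, Usp15 from -0.14 to 0.13, Usp4 from -0.057 to 0.82 and Usp8 from -0.21 to 0.98. With ADAR1 p150 they ranged for Usp16 from -0.094 to 0.18, Usp7 from -0.38 to 0.12, Usp14 from -0.12 to 0.29, Usp53 from -0.23 to 0.72, Usp2 from -0.016 to 0.62, Usp15 from -1.06 to 0.45, Usp1 from -0.023 to 0.46, Usp19 from -0.75 to 0.59, Usp33 from -0.22 to 0.16, Usp12 from -1.59 to 0.13, Usp31 from -0.71 to 0.17, Usp3 from -0.14 to 0.38 and Usp8 from -1.21 to 0.57. The differences ranged for Usp7 from -0.27 to 0.30, Usp2 from -0.27 to 0.84, Usp40 from -0.52 to 0.0076, Usp15 from -0.45 to 1.06, Usp1 from -0.059 to 0.83, Usp12 from -0.81 to 0.91 and Usp8 from -0.29 to 1.49. The cause was not tested. Depth limits the tests, since members with a mean count of 10 to 30 had standard errors up to 0.58 in a treatment contrast.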
